A study of Schizosaccharomyces pombe with 6 samples.

Results

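Transfer RNA genes of the fission yeast Schizosaccharomyces pombe were examined for occupancy by RPA (replication protein A), which binds DNA wherever it is single-stranded, in cells held in hydroxyurea with and without the checkpoint kinase Rad3. The nuclear tRNA genes of the ASM294v3 annotation were taken from chromosome I left of its centromere and from all of chromosomes II and III, together with the array probes whose middle lay within 500 bp of the middle of the gene. The annotation holds 171 nuclear tRNA genes, of which 154 lie in that area. At least 2 probes covered 118 of them, and these 118 loci are the ones described here. The other 36 genes of the area all lie within 50 kb of a centromere, where 29 had no probe and 7 had 1 probe. The 17 genes on the rest of chromosome I were not used, because the probe positions there did not match the assembly.

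The 6 arrays are tiling arrays with 2 colours, each carrying the DNA brought down with the RPA subunit Ssb1 (IP) in one dye and the input of the same sample in the other. Each of the 2 strains has 3 arrays. One strain is cdc25-22, called WT as in the labels. The other is cdc25-22 with rad3 deleted, called rad3Δ. The cdc25-22 allele, a temperature-sensitive form of the phosphatase that lets cells enter mitosis, is thus carried by both. Both were grown at 25 °C, arrested for 4 h at 36.5 °C, brought back to 25 °C, and given 6 mM hydroxyurea after the release. How long the drug acted, whether replicates were separate cultures, and whether a strain is 1 clone are not stated in the sources used here, so p-values measure the spread between these arrays, which may be technical. An IP without antibody or without a tag was not used here.

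tRNA genes are short and are transcribed by RNA polymerase III. Their promoter lies inside the gene, in an A box and a B box that are bound by the factor TFIIIC. In budding yeast, tRNA genes are known as places where replication forks slow or pause, and in fission yeast clusters of tRNA genes flank the centromeres, where they act as boundaries of heterochromatin. Hydroxyurea starves forks of nucleotides by inhibiting ribonucleotide reductase. Rad3, the ATR-family kinase that is called to RPA-coated DNA, starts the checkpoint that protects stalled forks.

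The genes on which the results turn are shown first, 5′ to 3′ on the transcribed strand and read from ASM294v3. Capitals mark the B box as searched, GTTCNANNC, on either strand. The glutamate gene below is carried by 4 of the measured loci in the same sequence, among them the locus with the highest level in both strains and the locus with the largest difference between strains. The glutamine gene is carried by a high and a low locus, and the proline gene by 6 loci. The lysine gene is carried by 4 loci and the threonine gene by 3, and each of the pair has 1 copy that rose in rad3Δ. The arginine gene, a single copy, is one of the genes in which the searched letters do not occur.

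SPCTRNAGLU.10 (chrIII:1097499-1097570, minus strand): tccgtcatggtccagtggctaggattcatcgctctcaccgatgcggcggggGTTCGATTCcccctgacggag

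SPCTRNAGLN.06 (chrIII:2074991-2075062, minus strand): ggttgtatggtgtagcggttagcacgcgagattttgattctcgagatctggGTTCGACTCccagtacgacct

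SPATRNAPRO.03 (chrI:1449398-1449469, minus strand): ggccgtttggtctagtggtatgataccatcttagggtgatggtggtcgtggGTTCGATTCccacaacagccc

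SPATRNALYS.04 (chrI:2684683-2684765, minus strand): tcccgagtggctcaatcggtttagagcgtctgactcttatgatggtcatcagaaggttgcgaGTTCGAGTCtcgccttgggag

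SPATRNATHR.01 (chrI:1603305-1603376, minus strand): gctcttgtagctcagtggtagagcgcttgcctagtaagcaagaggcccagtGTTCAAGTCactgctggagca

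SPATRNAARG.01 (chrI:3443055-3443144, plus strand): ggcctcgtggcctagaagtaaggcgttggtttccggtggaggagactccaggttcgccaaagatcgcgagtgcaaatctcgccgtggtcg

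The B box letters occur in 111 of the 118 genes, against 2.36% of 146748 genome windows of 73 bp. The genes run from 71 to 102 bp with a median of 73 bp, and 25 hold an intron, as the lysine gene above does. They carry 58 different mature sequences, and 88 of the loci share theirs with at least 1 other measured locus. Of the 118, 12 are centromeric, that is within 50 kb of the middle of a centromere, with 4 on chromosome II, 8 on chromosome III and none on chromosome I. The other 106 lie on the arms.

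Occupancy is given as log2 of IP over input with the median of each array set to 0, averaged over the probes of a locus. The loci rest on 398 probes, 2 to 6 each with a median of 4, and 20 loci share a probe with a neighbour. Of the 30 probes over rad3, 22 were picked for a low signal in all 3 rad3Δ inputs. Their median log2 values against the array median were -7.39 to -5.10 there and -0.48 to -0.18 in the WT inputs, as the labels require. The remaining probes over rad3 had medians of -0.31 to -0.02 in the rad3Δ inputs. Over all probes, arrays of one strain correlated at 0.531 to 0.671 (Pearson). Arrays of different strains with the same replicate number, which share a slide, correlated at 0.519 to 0.615. Those with different numbers correlated at 0.328 to 0.493. WT arrays sat at position 2 of each slide and rad3Δ arrays at position 4, and the effects of strain and of position cannot be told apart.

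RPA was high over tRNA genes in both strains. The mean level over the 118 loci was 0.43, 0.32 and 0.34 on the WT arrays, which is 0.36 ± 0.06 (SD, n = 3). On the rad3Δ arrays it was 0.37, 0.29 and 0.29, which is 0.32 ± 0.05 (SD, n = 3). The 10102 windows of 1 kb elsewhere in the genome, called tiles here, averaged -0.03 ± 0.03 and 0.02 ± 0.03. Tiles between genes, where tRNA genes lie, averaged 0.01 ± 0.03 and 0.16 ± 0.02. Every array had the mean of its tRNA loci above that of its tiles. With background correction by normexp, a model of signal and background, the mean over tRNA loci was 0.36 in WT and 0.18 in rad3Δ. A correction for the G+C content of the 1 kb of genome around each locus or tile gave 0.31 and 0.14. It was chosen after the data had been seen.

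Single loci were tested against the array median with limma across all 6 arrays in a model of strain and dye orientation, and p-values were adjusted by Benjamini-Hochberg over 10306 loci and tiles at 0.05. In WT, 73 of the 118 loci (61.9%) were above the median, where 18.7% of tiles were. In rad3Δ, 56 loci (47.5%) were above, where 24.0% of tiles were. Below the median were 5 loci in WT and 8 in rad3Δ, against 22.3% and 24.7% of tiles. Between genes, 22.5% of tiles passed in WT and 37.3% in rad3Δ. Both strains shared 48 loci above the median, 25 were called in WT and not in rad3Δ, and 8 were called in rad3Δ and not above in WT. A call in one strain alone does not show that the strains differ.

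**Figure D1:**
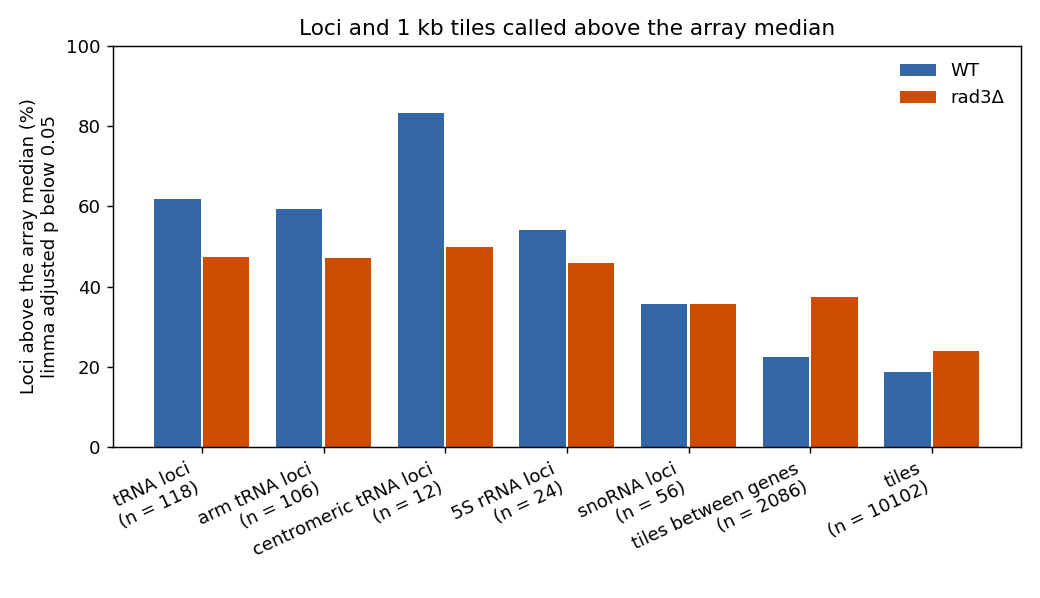
Percentage of loci or 1 kb tiles above the array median at a limma adjusted p below 0.05, in WT (blue) and rad3Δ (orange), with n under each class. tRNA loci stood at 61.9% and 47.5%, and tiles at 18.7% and 24.0%.

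The number of calls, among loci and tiles alike, depended on the background correction and on single arrays. With normexp background correction of the raw spot signals in place of the processed ones, 43 loci were above the median in WT and 23 in rad3Δ. Of the tiles 7.3% and 9.7% were. Without WT replicate 3 the WT count was 30, where 3.97% of tiles were above. Without rad3Δ replicate 3 the rad3Δ count was 23, where 6.4% of tiles were above. Replicate 3 is the only one of each strain with the IP in the red dye.

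The ratio of IP to input was highest at the gene itself and fell off within about 1 kb. Around arm genes, probes in the 250 bp bin centred on the gene averaged 0.62 ± 0.12 in WT and 0.50 ± 0.17 in rad3Δ (SD, n = 3 arrays, 81 probes). At 250 bp upstream the means were 0.30 and 0.27, and at 250 bp downstream 0.32 and 0.31. At 1000 bp downstream they were 0.01 and 0.06. Upstream, WT read 0.11 at 500 bp and 0.08 at 750 bp, and rad3Δ read 0.21 and 0.17. The 53 probes that overlap an arm tRNA gene gave 0.72 ± 0.15 in WT and 0.59 ± 0.21 in rad3Δ. Probes 1500 to 3000 bp away gave 0.05 ± 0.02 and 0.08 ± 0.05.

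The 500 bp to each side, counted from the gene middle and so holding part of the gene, were slightly higher upstream than downstream. In WT the 500 bp upstream of the middle of arm genes exceeded the 500 bp downstream by 0.04, 0.03 and 0.04 on the 3 arrays, and in rad3Δ by 0.02, 0.01 and 0.01, so the sign was the same on all 6. In the bins 250 bp from the middle the order of the means was the reverse. They were 0.30 upstream and 0.32 downstream in WT, and 0.27 and 0.31 in rad3Δ. Farther out the sides differed more in rad3Δ. In the bin 500 bp upstream its arrays read 0.19, 0.23 and 0.21, and 500 bp downstream 0.13, 0.12 and 0.12, with no overlap. No test was made of these differences.

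**Figure D2:**
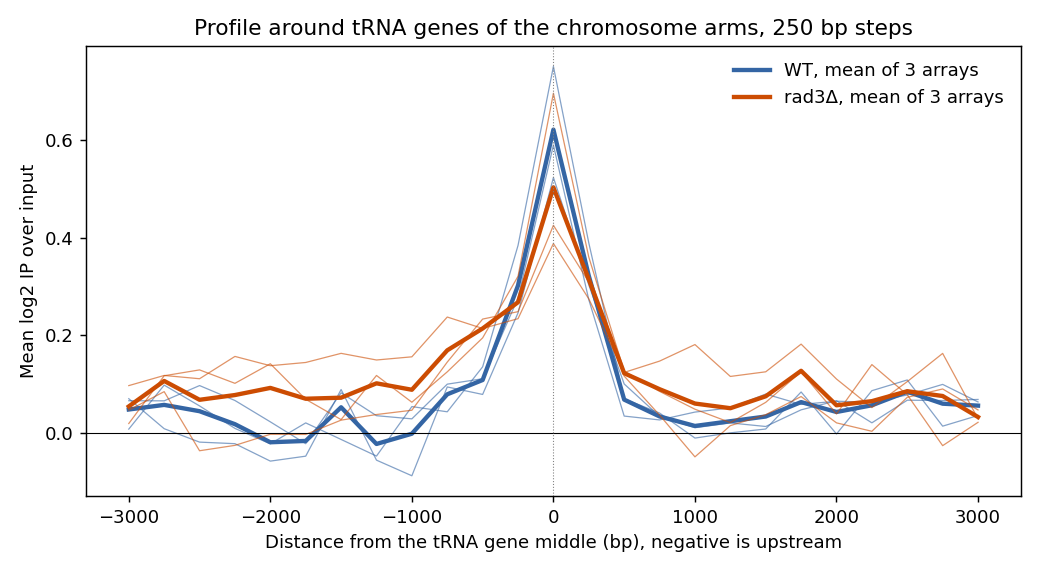
Mean log2 IP over input in 250 bp steps of distance from the middle of arm tRNA genes, with upstream negative, for each array (thin lines) and each strain (thick lines, mean of 3 arrays). In the bin at the gene WT averaged 0.62 and rad3Δ 0.50.

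A ratio can be high because the IP is high or the input is low. Over whole arm windows the input was near the median, at -0.04 in WT and -0.02 in rad3Δ, and the IP stood at 0.28 and 0.26. In the bin at the gene itself the WT input was -0.34, against 0.04 at 250 bp upstream and 0.03 at 250 bp downstream. The WT peak of the ratio at the gene thus goes with a dip of the input of similar size. The WT ratio in these 3 bins was 0.62, 0.30 and 0.32. The IP was not read by bin, but log2 ratio and log2 input add up to log2 IP. These WT values thus hold no peak of the IP at the gene over the bins 250 bp away. Probes over a tRNA gene also hold sequence that recurs in the genome. When the 67 probes over any tRNA gene were left out, an alternative chosen after the data had been seen, the mean over the loci was 0.28 in WT and 0.26 in rad3Δ, and 61 and 49 loci were above the median, all of them among the 73 and the 56. The tRNA windows are also richer in A+T than the tiles, with a median G+C of 31.4% against 36.1%. With a correction for G+C, likewise added later, the mean was 0.31 in WT and 0.14 in rad3Δ. Above the median were then 64 and 39 loci, where 18.5% and 24.0% of tiles were.

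Levels varied widely among loci. The highest in both strains was SPCTRNAGLU.10, a glutamate tRNA gene in the centromeric region of chromosome III, with 1.82, 2.14 and 2.14 on the WT arrays and 1.76, 1.80 and 2.51 on the rad3Δ arrays. It rests on 2 probes, and its strains overlapped. SPCTRNAGLN.06, a glutamine tRNA gene on the right arm of chromosome III, came next in WT with 1.16, 1.41 and 1.45, and read 0.70, 0.92 and 1.26 in rad3Δ. SPATRNAPRO.03, a proline tRNA gene between vps53 and tim17, read 1.35, 0.95 and 0.94 in WT and 0.84, 0.69 and 0.63 in rad3Δ, with no overlap. The difference of -0.36 ± 0.14 (SE) had an adjusted p of 0.131 in limma, and 0.043 with the replicate number as a block.

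The rest of the 8 highest in WT were SPBTRNAARG.07, SPATRNAVAL.04, SPATRNAARG.01, SPCTRNAVAL.11 and SPBTRNAASN.02, with means of 0.86 to 1.02. In rad3Δ the 8 highest were SPCTRNAGLU.10, SPBTRNAGLU.08, SPBTRNAGLY.09, SPATRNAPRO.01, SPATRNATHR.01, SPATRNAILE.02, SPCTRNAGLN.06 and SPBTRNAMET.06. Both lists hold SPCTRNAGLU.10 and SPCTRNAGLN.06. From SPATRNAPRO.03 down, neighbours among the 8 in the WT order lay closer than the larger of their SDs between arrays.

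The lowest in WT was SPBTRNAGLN.01, a glutamine tRNA gene beside the histone deacetylase gene clr3, with -0.34, -0.60 and -0.43. It shares a probe with SPBTRNAGLN.02. In rad3Δ it read 0.37, -0.52 and -0.29, so 1 array stood apart. SPATRNALYS.04, SPBTRNAGLY.03 and SPBTRNALEU.09 followed in WT with means of -0.41, -0.30 and -0.23. The 4 lowest in rad3Δ were SPCTRNAGLN.05, SPBTRNAPRO.04, SPCTRNAGLY.11 and SPBTRNAGLY.03, at -0.32 to -0.44. Only SPBTRNAGLY.03 was among the 4 lowest in both, with -0.08, -0.27 and -0.54 in WT and -0.09, -0.27 and -0.59 in rad3Δ.

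Genes with the same mature sequence did not have the same level. The 4 loci of the glutamate gene shown above ranged in WT from 0.07 at SPBTRNAGLU.05 through 0.10 at SPBTRNAGLU.08 and 0.61 at SPCTRNAGLU.09 to 2.03 at SPCTRNAGLU.10. Of the glutamine pair, SPCTRNAGLN.06 averaged 1.34 in WT and SPCTRNAGLN.05 averaged -0.15. The 6 proline loci ran from -0.18 at SPBTRNAPRO.04 to 1.08 at SPATRNAPRO.03. Over the 28 groups of identical genes, with 88 loci, the SD within a group was 0.379 in WT and 0.412 in rad3Δ. The SD over all 118 loci was 0.349 and 0.411, and the median SD of 1 locus between arrays was 0.172 and 0.159. Copies of one sequence thus differed among themselves about as much as tRNA loci in general did, and by more than arrays of one locus did.

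**Figure D3:**
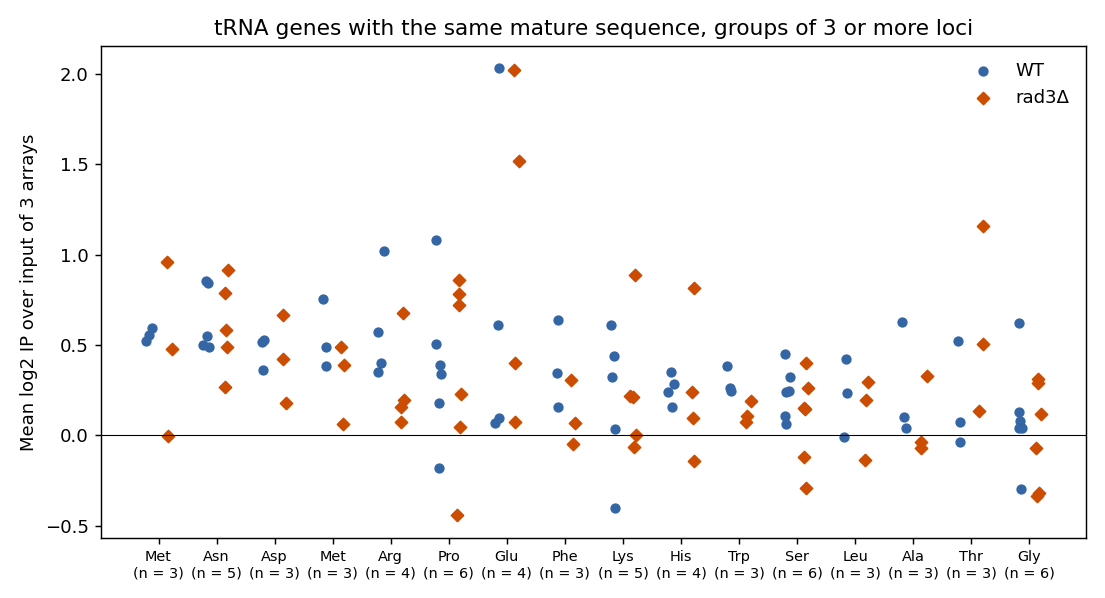
Mean log2 IP over input of 3 arrays for each tRNA locus in groups of 3 or more loci with the same mature sequence, labelled by amino acid, in WT (blue circles) and rad3Δ (orange diamonds). The glutamate group spans 0.07 to 2.03 in WT.

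Grouped by amino acid, as the locus names give it, medians in WT ran from 0.07 for threonine to 0.67 for isoleucine, with ranges that overlapped for nearly all. All 6 asparagine loci were above the median in both strains, with WT means of 0.49 to 0.86 and rad3Δ means of 0.27 to 0.91. All 9 arginine loci were above in WT, at 0.28 to 1.02, and 3 were above in rad3Δ, where they ran from 0.00 to 0.69. Of the 9, 4 are centromeric. All 6 methionine loci, initiator and elongator genes not being separated here, were above in WT and 4 in rad3Δ. Without the replicate block none of the arginine loci was called different between strains, and with it SPCTRNAARG.10 and SPCTRNAARG.11 were lower in rad3Δ (limma adjusted p of 0.0416 and 0.0311).

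Threonine loci showed the opposite order. In WT 1 of the 7 was above the median and in rad3Δ 4 were, with medians of 0.07 and 0.42, and 2 of them rose. Alanine, with 1 of 5 above in each strain, and histidine, with 1 of 4, held few calls. Tryptophan had all 3 loci above in WT at 0.24 to 0.38 and none in rad3Δ at 0.07 to 0.19, with none called different. Amino acids are a description of small groups, whose members differ in position and neighbours.

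Between the strains 80 of the 118 loci (67.8%) had a difference below 0, where 55.4% of tiles did, and the others one above it. The mean over all loci was small. The mean of rad3Δ minus WT was -0.05, -0.04 and -0.04 on the 3 slides, and the median over loci was -0.10. Tiles had a mean of 0.04 and a median of -0.03, and tiles between genes a mean of 0.15. The mean over tRNA loci was -0.19 with normexp, -0.17 with the G+C correction and 0.0012 with each array centred on its mode. By limma 8 loci were higher in rad3Δ, which is 6.78% of the 118 where 9.53% of tiles were higher. Lower in rad3Δ were 3 loci, 2.54% where 0.881% of tiles were lower. With the replicate number as a block, as the shared slides allow, 11 were higher and 15 lower, against 13.0% and 3.40% of tiles. Arrays did not overlap at 38 loci, 11 with rad3Δ higher and 27 with rad3Δ lower, where 15.0% and 10.6% of tiles did not. With normexp no locus passed in either direction, nor did any tile (limma, at an unadjusted p under 0.05 4 loci higher and 26 lower).

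The largest rise was at SPBTRNAGLU.08 (chrII:4107639-4107710), a glutamate tRNA gene beside mug147. Its WT arrays read 0.28, 0.05 and -0.03 and its rad3Δ arrays 1.46, 1.16 and 1.94. Every rad3Δ array was far above every WT array, with a difference of 1.42 ± 0.17 (SE), 2.68-fold, and an adjusted p of 0.000323 by limma. The locus was near the genome median in WT and the second highest of the 118 in rad3Δ. The other 3 loci with this gene sequence differed by -0.21 to 0.00. An AT-rich island, a stretch of 500 bp windows with at least 75% A+T, lies 24.5 bp from the middle of the gene. Of the 8 rises, 6 have an island within 1 kb.

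SPATRNALYS.04, a lysine tRNA gene between cdr1, which encodes an inhibitory kinase of Wee1, and bcs1, read -0.25, -0.22 and -0.75 in WT and 0.95, 0.76 and 0.96 in rad3Δ. It was called below the array median in WT and above it in rad3Δ, the only one of the 118 with both calls, with a difference of 1.30 ± 0.15 (SE), 2.45-fold, and a limma adjusted p of 0.000217. No island lay within 1 kb of it. The nearest was 21524 bp away. The 3 other loci with the same gene sequence differed by -0.40 to -0.03.

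SPATRNATHR.01, a threonine tRNA gene beside erv25, which encodes a cargo receptor of the early secretory pathway, read 0.23, 0.14 and -0.48 in WT and 1.49, 0.75 and 1.24 in rad3Δ. The groups did not overlap, and the difference was 1.19 ± 0.20 (SE), 2.29-fold, with a limma adjusted p of 0.00247. An island lies 60.5 bp from the middle of the gene. SPATRNATHR.02 and SPBTRNATHR.07, with the same gene, differed by -0.02 and 0.06.

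The other rises were smaller. SPATRNATHR.04, between the exosome gene rrp41 and tif211, which encodes a subunit of initiation factor eIF2, read 0.34, 0.06 and -0.39 in WT and 0.80, 0.62 and 0.59 in rad3Δ. SPBTRNAGLY.09, beside the ribosome biogenesis gene rrs1, went from 0.63, 0.77 and 0.68 to 1.10, 1.23 and 1.49, and SPATRNAPRO.01 from 0.80, 0.68 and 0.63 to 1.13, 1.23 and 1.41. These 2 loci were already above the median in WT. SPBTRNAPRO.08, beside the ribosomal protein gene rpl1801, read 0.15, 0.35 and -0.13 in WT and 0.67, 0.63 and 0.54 in rad3Δ. The differences of these 4 loci were 0.49 to 0.67 with limma adjusted p-values of 0.0115 to 0.0285, and all 4 lie within 1 kb of an island. SPBTRNAHIS.02 also passed, at 0.46, but its arrays overlapped.

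Between strains the input at the 8 rises differed by -0.04 to 0.30, and the IP by 0.52 to 1.70. A higher input lowers the ratio. At SPBTRNAGLU.08 the input went from 0.27 to 0.56 and the IP from 0.34 to 2.05. At SPATRNALYS.04 the input was -0.18 and -0.07 and the IP -0.61 and 0.78.

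Falls called without the block were fewer than the rises, and smaller than the largest of them. With the block more loci were lower, 15, than higher, 11, where 3.40% and 13.0% of tiles were. SPCTRNASER.11, a serine tRNA gene beside the elongation factor gene tef3, read 0.42, 0.75 and 0.56 in WT and 0.02, 0.27 and -0.24 in rad3Δ. The difference was -0.56 ± 0.15 (SE), with a limma adjusted p of 0.0282. SPCTRNAMET.07 lies next to it, shares its probes and was called with it at -0.53, so the pair is 1 observation. SPATRNALYS.01, beside the heterochromatin protein gene swi6, read 0.27, 0.58 and 0.47 in WT and -0.04, -0.10 and -0.06 in rad3Δ, with a difference of -0.51 ± 0.13 (SE) and a limma adjusted p of 0.0263.

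Each of the 3 falls lost its call under some alternative. None remained with normexp, without the dye term, without WT replicate 2, without WT replicate 3, without rad3Δ replicate 1 or without rad3Δ replicate 3. Of the 8 rises, none remained with normexp, 4 remained with the G+C correction and 4 with medians of probes. Without WT replicate 3 or without rad3Δ replicate 3 the rises at SPBTRNAGLU.08 and SPATRNALYS.04 remained, 2 of the 8.

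**Figure D4:**
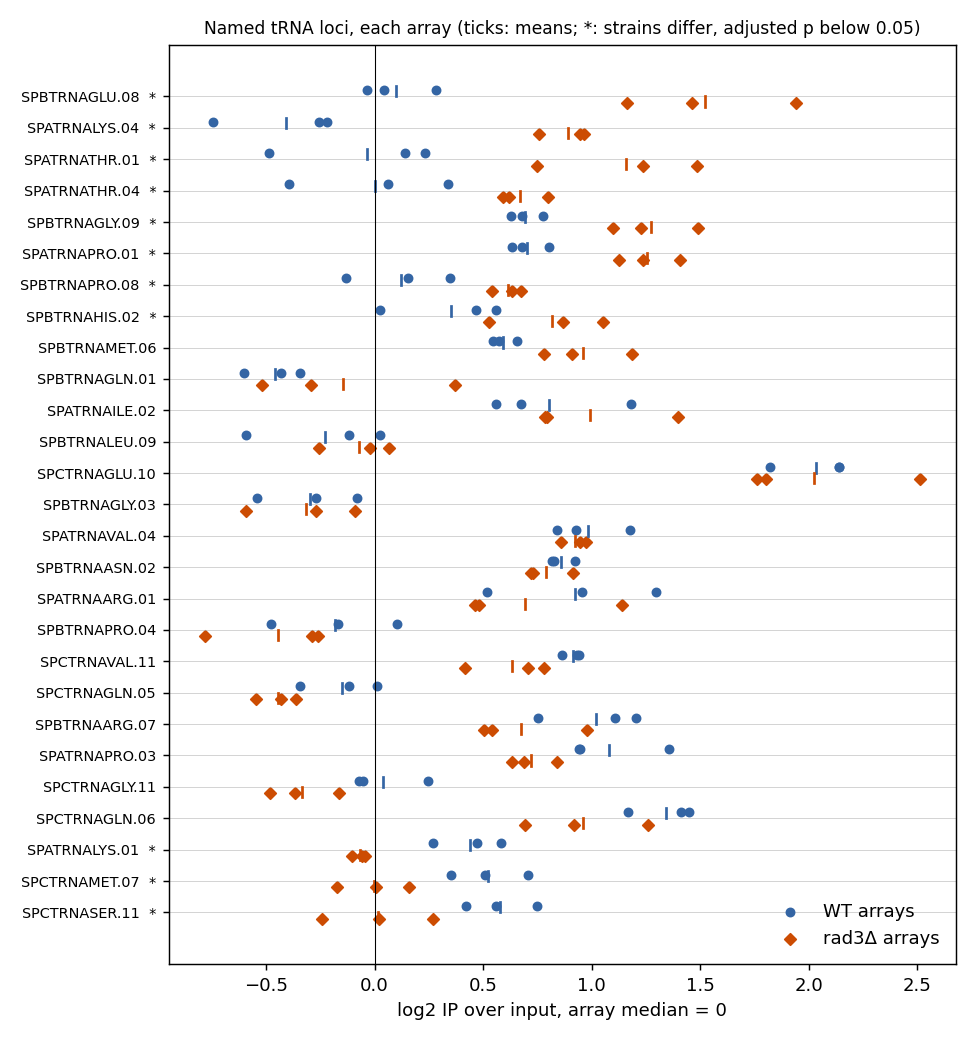
log2 IP over input on each array (WT blue circles, rad3Δ orange diamonds, ticks for means of 3) at the named tRNA loci, ordered by the difference between strains. At SPBTRNAGLU.08 the WT arrays lie at -0.03 to 0.28 and the rad3Δ arrays at 1.16 to 1.94.

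Of the 118 loci, 37 lie within 1 kb of an AT-rich island, against 781 of 10102 tiles. These loci averaged 0.37 ± 0.05 in WT and 0.42 ± 0.06 in rad3Δ, and 6 of them were higher in rad3Δ (16.2%) and 2 lower (5.41%). Tiles near an island went from -0.07 to 0.34, and 39.3% of them were higher and 0.90% lower. Over the other 81 loci the mean went from 0.36 to 0.27, with 2 higher (2.47%) and 1 lower (1.23%). Tiles away from islands stood at -0.02 and -0.01, with 7.04% higher and 0.88% lower. Tiles that lie both between genes and near an island went from -0.06 to 0.43, with 59.7% above the median in rad3Δ, where 48.6% of the tRNA loci near islands were. In WT the tRNA loci near islands were thus well above such tiles, and in rad3Δ they were not above them. On the 3 slides the tRNA loci near islands differed by 0.05, 0.04 and 0.05, and the tiles near islands by 0.36, 0.32 and 0.54.

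**Figure D5:**
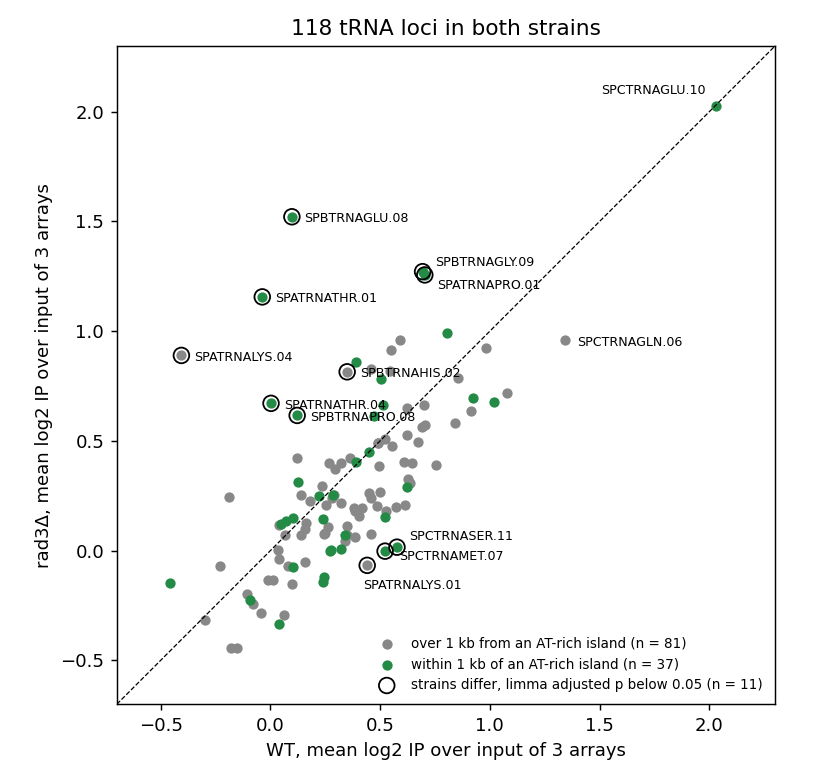
Mean log2 IP over input of the 118 tRNA loci in WT (x) and rad3Δ (y), green where an AT-rich island lies within 1 kb (n = 37) and grey elsewhere (n = 81), with circles around the 11 loci that differed at a limma adjusted p below 0.05. The dashed line marks equal levels, and SPBTRNAGLU.08 and SPATRNALYS.04 lie farthest above it.

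The centromeric loci stood higher than arm loci in WT, in mean and in median. The 12 averaged 0.61 ± 0.05 in WT and 0.38 ± 0.10 in rad3Δ, against 0.33 ± 0.06 and 0.31 ± 0.06 for the 106 arm loci (SD, n = 3). Their medians were 0.49 and 0.20, against 0.32 and 0.25 on the arms, so in rad3Δ the centromeric median was the lower. SPCTRNAGLU.10 weighs on the means, and without it, an alternative chosen after the data had been seen, the other 11 averaged 0.48 in WT and 0.23 in rad3Δ. Above the median were 10 of the 12 in WT and 6 in rad3Δ, and none was called different between strains by limma without the block. Tiles within 50 kb of a centromere averaged 0.29 and 0.18. Of these tiles 37.3% were above the median in WT and 26.5% in rad3Δ, and none was called different between strains. The excess over the arms depended on loci with 2 probes. With at least 3 probes per locus it was 0.15 in WT and -0.17 in rad3Δ, in place of 0.28 and 0.07. Input at the centromeric loci was 0.39 above the array median in both strains, and the arm input was near 0.

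On the left of the centromere of chromosome III, the 5 consecutive measured tRNA loci from SPCTRNASER.09 to SPCTRNALEU.11 read 0.24 to 0.57 in WT and -0.12 to 0.20 in rad3Δ. SPCTRNAARG.10 had 0.53, 0.27 and 0.57 against -0.06, 0.05 and 0.24, and SPCTRNAARG.11 had 0.53, 0.67 and 0.51 against 0.10, 0.30 and 0.20. Their arrays did not overlap, with limma adjusted p-values of 0.0853 and 0.0864. With the block they were 0.0416 and 0.0311. SPCTRNASER.09 shares probes with SPCTRNAARG.10, and SPCTRNAASP.05 with SPCTRNAARG.11, so these windows are not independent. SPCTRNAGLU.10, nearer to the centromere middle, did not move.

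Chromosome III held 32 of the 80 loci with a difference below 0, and chromosomes I and II 24 each. On chromosome III 94.1% of the loci were below 0, where 77.0% of its tiles were. It was 61.5% against 47.7% on chromosome I, and 53.3% against 50.6% on chromosome II. The 34 loci of chromosome III averaged 0.44 ± 0.02 in WT and 0.19 ± 0.04 in rad3Δ, with differences of -0.20, -0.24 and -0.32 on the 3 slides. On chromosome I the 39 loci went from 0.37 to 0.41, and on chromosome II the 45 loci from 0.30 to 0.34. Tiles of chromosome III moved the same way but less, by -0.08, -0.09 and -0.14. Without overlap of arrays 16 of the 34 were lower and none was higher, where 17.9% of chromosome III tiles were lower. Of the 15 loci called lower with the block, 12 lie on chromosome III, 5 of them centromeric. Without the block, 2 of the 34 were called, SPCTRNASER.11 and SPCTRNAMET.07.

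Loci with another tRNA gene within 1 kb, 25 in all, averaged 0.40 ± 0.06 in WT and 0.20 ± 0.03 in rad3Δ, and 21 and 10 of them were above the median. The 93 loci that stand alone averaged 0.35 ± 0.07 and 0.35 ± 0.06, with 52 and 46 above. The clustered loci share probes and many are centromeric, so cluster and place overlap. Loci with an intron averaged 0.43 and 0.38 and those without 0.35 and 0.30, a gap that was alike in both strains.

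Other small RNA genes gave a point of comparison, among them the 5S genes, which RNA polymerase III also transcribes. The 24 measured genes of 5S ribosomal RNA averaged 0.35 ± 0.15 in WT and 0.39 ± 0.09 in rad3Δ, and 13 and 11 were above the median. The 56 loci of snoRNA genes averaged 0.20 ± 0.09 and 0.16 ± 0.05, with 20 above in each strain, and 4 pairs of them rest on the same probes. Small RNA loci that share a probe with a tRNA locus, 8 in all, were left out. On replicates 1 and 2 the 5S mean was above the tRNA mean in both strains. It read 0.48 and 0.38 against 0.43 and 0.32 in WT, and 0.48 and 0.40 against 0.37 and 0.29 in rad3Δ. On replicate 3 it was below in WT, 0.19 against 0.34, and the same in rad3Δ, at 0.29. Among 5S genes SPRRNA.40 was the highest in WT, with 1.19, 0.98 and 1.19, and read 1.48, 1.46 and 1.77 in rad3Δ. SPRRNA.54 read 0.01, -0.09 and -0.53 in WT and 1.04, 0.89 and 1.55 in rad3Δ, a rise of 1.36. Of the snoRNA genes sno20 differed most, by 1.65. The gene of the spliceosomal U6 RNA, snu6, which RNA polymerase III also transcribes, read 0.13, -0.11 and -0.27 in WT and 0.54, 0.79 and 0.29 in rad3Δ.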

How the data were processed

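Members, gene lists and features were chosen with earlier results of these data known. The deposited scanner files hold spot intensities. The submitters' processing notes name Agilent Feature Extraction 10.7.3.1. Per the file headers the processed intensity was background-subtracted and scaled by dye with no lowess step. The deposited LogRatio column (log10, red over green) was only checked. The authors' deposited table, a linear IP to input ratio equal to the scanner's, and served as an alternative. Per the labels the IP was in green on replicates 1 and 2 and in red on replicate 3 of both strains. The labels' extraction protocol speaks of RNA, although channels are labelled IP and input, and 1 rad3Δ input carries a different allele number of cdc25.

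Log2 ratios were computed from the deposited processed intensities and centred on each array's median. Flagged spots (629 of 42641 probes on any array) were left out. Probe length against G+C of ASM294v3 placed the probes: 364 of 364 windows matched within 12 bp, against 4 of 61 on the rest of chromosome I. limma 3.58.1 in R 4.3.3 fitted strain and dye (residual df 3) with two-sided tests, which was tested on simulated data. Python 3.11.15 did the rest. An exact permutation test of 3 arrays against 3 cannot go below 0.1, so none was used. The number of arrays limits the precision. Replicate numbers pair the strains: each number is 1 slide per the file headers, and deviations from the strain mean correlated at 0.500, 0.433 and 0.546 within a number and at -0.375 to -0.081 between numbers.

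Named loci were the 8 highest and 4 lowest in each strain, and the called rises and falls without overlap of arrays (8 at most of each), with loci that share probes named together. SPBTRNAHIS.02 and the loci named to complete a group of identical genes, a centromeric cluster or a small count fall outside this rule and were chosen after their values were seen. Amino acids come from locus names, which at 2 loci differ from the annotated product. Alternatives were normexp (offset 50), mode centring, the authors' table, no dye term, the replicate block, each array left out, windows of 250 and 1000 bp, medians, a minimum of 3 probes, dim probes left out and gene bodies in place of tiles. A G+C correction, 1 locus per set of shared probes, leaving out probes over tRNA genes, and leaving out SPCTRNAGLU.10 from the centromeric loci were chosen after seeing the data. One sequence is not reported here.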

Additional observations from a re-analysis of the deposited data

How the results depend on the processing

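The authors' table holds the same ratios as the main fit, so its calls had to be the same. Leaving out dim probes, 45 of 42012, also gave the same calls. With normexp 43 loci were above and 0 below the median in WT, 23 above and 3 below in rad3Δ, and 0 higher and 0 lower in rad3Δ (limma, with 4 and 26 at an unadjusted p under 0.05). The rad3Δ mean was then 0.18 and the difference -0.19. Mode centring left 1 locus lower, and its mean difference was 0.00. Without the dye term 2 loci were below in WT, 4 below in rad3Δ and 0 lower. The replicate block gave 15 lower in place of 3, 11 higher in place of 8, and 80 and 68 above the median in WT and rad3Δ, and among the named loci it added calls at SPCTRNAGLN.06 (-0.38), SPATRNAPRO.03 (-0.36) and SPCTRNAGLY.11 (-0.38) and changed no other.

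Leaving out 1 array at a time gave 30 to 74 loci above and 0 to 5 below in WT, 23 to 58 above and 0 to 9 below in rad3Δ, 2 to 9 higher and 0 to 4 lower. Without replicate 3 of either strain the dye term rests on the other strain alone.

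Windows of 250 bp measured 87 loci, with 0 below in WT, 4 below in rad3Δ, 3 higher, 1 lower, means of 0.49 and 0.43, and centromeric minus arm values of 0.059 and -0.21. Windows of 1000 bp gave 126 loci, 8 below in WT, 13 higher, 8 lower and means of 0.25 and 0.23. Medians of probes gave 5 higher, and gene bodies in place of tiles 5 lower. A minimum of 3 probes gave centromeric minus arm values of 0.15 and -0.17, 1 locus per set of shared probes 0.34 in WT, and leaving out SPCTRNAGLU.10 0.15 and -0.084. The G+C correction gave 19 below in rad3Δ, 4 higher and 17 lower, against 23.4%, 9.12% and 1.40% of tiles. Its rad3Δ mean was 0.14 and its difference -0.17. Without probes over tRNA genes 8 were below in WT and 14 in rad3Δ, with means of 0.28 and 0.26 and a centromeric excess of 0.14 in WT; 4 loci then had 1 probe. The cause of these shifts was not tested.

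No spot-level replicate exists, and loci of 2 probes weigh as much as loci of 6. Most centromeric tRNA genes have no probe, so the centromeric values describe only the 12 that were measured. Among these, SPCTRNAGLU.10 lies between genes without a probe.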
